A study of Homo sapiens with 12 samples.

Results

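K562 is an established line of human chronic myelogenous leukemia, carries the BCR::ABL1 fusion kinase and lacks functional p53. The comparison described is that of K562 cells kept with 25 µM MLN4924 for 12 h (3 libraries) against K562 cells without drug (3 libraries labelled control). These are 6 of the 12 libraries of the series, and the other 6 come from cells given 0.5 µM imatinib for 12 h, alone or with 25 µM MLN4924. All groups share the cell line, and the 12 libraries were made from polyA RNA. The dose of MLN4924 had been chosen by the study as one without clear toxicity to K562, a line described there as resistant to this drug. Values are TPM (transcript abundance scaled for transcript length and to the same total in each library), read as log2(TPM + 1), and the members are the 15478 Ensembl genes that reached 1 TPM in 3 or more of the 12 libraries. Of these, 11735 are protein-coding. A gene passed where limma, fitted to all 12 libraries, gave an adjusted p under 0.05. Fold changes are on the log2(TPM + 1) scale, with the standard error of the fit after ± where it is given, at n = 3 per group. No source says whether the 3 libraries of each group were separate cultures, and the p-values then cover only the variation among libraries, which may be technical.

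MLN4924 blocks the NEDD8-activating enzyme, a heterodimer of NAE1 and UBA3. That enzyme loads the ubiquitin-like protein NEDD8 onto the conjugating enzymes UBE2M and UBE2F, which pass it to cullins. A cullin carries NEDD8 when it is an active ubiquitin ligase, and the substrate receptor bound to it decides which protein is marked for the proteasome. CUL3 with the receptor KEAP1 keeps the transcription factor NRF2 (gene NFE2L2) low, CUL1 with an F-box receptor clears inhibitors of NF-kB and of the cell cycle, and CUL4 removes the replication licensing factor CDT1 in S phase. These are events at the protein level, and the libraries measure RNA.

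The libraries carried the markers of the line. All 10 K562 markers passed the filter, among them HBG1 (4919, 4696 and 4590.5 TPM in control and 4314, 4380.1 and 4941 TPM with MLN4924), TAL1 and LMO2. With MLN4924 5 of the 10 fell (against 7.11% of all genes), including HBZ (-1.08), KLF1 (-0.99), GATA1 (-0.52) and TFRC (-0.28). Genes at 1 TPM or more numbered 13905 to 14099 in the 6 libraries, and transcripts of the mitochondrial chromosome took 12.76% to 13.89% of the TPM. Of 8 lymphoid markers 3 passed the filter, with a summed level of 38.7 to 46.2 TPM in control and 40.8 to 60.4 TPM with MLN4924, and of 8 monocyte and granulocyte markers only LYZ passed, with 6.79 to 8.33 TPM in control and 5.4 to 6.79 TPM with MLN4924. None of these 4 genes passed the test. Of 9 epithelial and fibroblast markers 4 passed the filter, with a summed level of 722 to 881 TPM in control and 941 to 1138 TPM with MLN4924. KRT8 and KRT18 rose (log2 fold changes of 0.45 and 0.54) and EPCAM fell (-0.72), while COL1A1, COL1A2, DCN, LUM and CDH1 did not pass the filter. In a bulk sample, fewer cells of a type and less RNA per cell cannot be told apart.

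MLN4924 changed 2239 genes (14.5% of those tested), of which 1139 rose (7.36%) and 1100 fell (7.11%). Most changes were small. The median was 0.509 log2 units among genes that rose and -0.547 among genes that fell, against -0.0043 over all genes tested. At least a 2-fold change was reached by 167 genes that rose and 143 that fell, and at least a 4-fold change by 28 and 9. The libraries of both groups did not overlap for 1136 of the genes that rose and 1096 of those that fell. Over all genes, 17.6% stood with the 3 MLN4924 libraries wholly above the 3 control libraries and 17.6% wholly below. Leaving out 1 library lowered the counts, most without MLN4924 replicate 2 (660 rose and 702 fell), MLN4924 replicate 3 (753 and 680) and control replicate 2 (706 and 724).

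**Figure D1:**
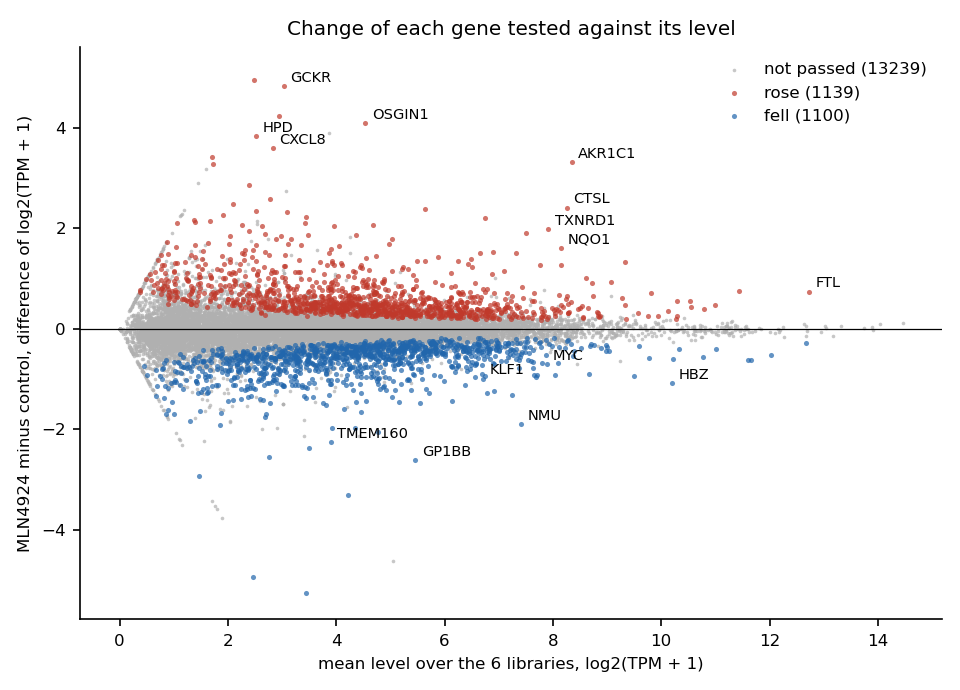
Log2 fold change of MLN4924 against control (vertical axis, log2(TPM + 1) scale) by the mean level of the gene (horizontal axis, log2(TPM + 1)), 1 point per gene, for the 15478 genes tested, with the 1139 that rose and the 1100 that fell in colour. Among protein-coding genes that passed, changes ran from -2.62 for GP1BB to 4.84 for GCKR, and the 5 coloured points past those ends are noncoding or unclassified genes, among them the small RNA genes RNVU1-8 (-4.94) and SNORA21B (4.96).

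The genes of the machinery that the drug acts on were read first. NEDD8 stood at 255, 243 and 209 TPM in control and 234, 236 and 241 TPM with MLN4924, and its log2 fold change was 0.01 ± 0.07 (adjusted p = 0.933). For NAE1 (ENSG00000159593, chromosome 16 from 66802875 to 66873256) the levels were 159.9, 158 and 186 TPM in control and 172, 174 and 178 TPM with MLN4924, with a log2 fold change of 0.06 ± 0.09 (SE, adjusted p = 0.719). UBA3, the catalytic partner of NAE1, stood at 15.5, 14.2 and 18 TPM in control and 18.3, 21.1 and 18 TPM with MLN4924, with a log2 fold change of 0.25 ± 0.10 (SE, adjusted p = 0.129). None of the 3 genes passed, and of 14 neddylation enzymes 1 rose, UBE2F at 0.38 ± 0.10 (adjusted p = 0.0269), and none fell, against 7.36% and 7.11% of all genes.

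Of 14 cullins and exchange factors 3 rose and 1 fell, against 7.36% and 7.11% of all genes. CUL3, the scaffold of the KEAP1 ligase, stood at 40, 46.6 and 48 TPM in control and 60.4, 57.8 and 55.9 TPM with MLN4924, with a log2 fold change of 0.37 ± 0.09 (SE, adjusted p = 0.0157). CUL4B (0.34 ± 0.05, adjusted p = 0.00185) and SKP1 (0.32 ± 0.06, adjusted p = 0.00522), the adaptor between CUL1 and F-box proteins, also rose, and CUL4A fell (-0.24 ± 0.07, adjusted p = 0.0417). CUL1 and CUL2 had log2 fold changes of 0.22 ± 0.09 (adjusted p = 0.133) and 0.14 ± 0.08 (adjusted p = 0.283). Among the 10 subunits of the COP9 signalosome, which takes NEDD8 off cullins, COPS7A fell (-0.35 ± 0.10, adjusted p = 0.0352) and none rose. Of 30 substrate receptors 5 rose, by 0.37 (CCNF) to 0.51 (KCTD9, with FBXW7, KCTD10 and CRBN between), and 3 fell (KLHL22, SPOP and KLHL12). KEAP1 itself stood at 67.5, 63.4 and 61.9 TPM in control and 73, 70.9 and 73.1 TPM with MLN4924, groups that did not overlap, with a log2 fold change of 0.17 ± 0.06 (SE, adjusted p = 0.0979). The calls for CUL3, CUL4A, UBE2F and COPS7A were each lost in several settings that left out 1 library.

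Of 24 measured genes whose proteins are degraded by cullin ligases, 6 rose and 2 fell, against 7.36% and 7.11% of all genes. NFE2L2, the gene of NRF2, stood at 49.5, 50.2 and 48.8 TPM in control and 55.9, 56.3 and 54.9 TPM with MLN4924, with a log2 fold change of 0.17 ± 0.11 (SE, adjusted p = 0.361), and CDT1 at 102, 79.5 and 85.4 TPM in control and 70.5, 79.4 and 75 TPM with MLN4924, with a log2 fold change of -0.24 ± 0.10 (SE, adjusted p = 0.16). Neither passed. CDKN1A, which codes for the CDK inhibitor p21, stood at 9.41, 9.93 and 10.3 TPM in control and 26, 25.3 and 26.3 TPM with MLN4924 and rose with a log2 fold change of 1.31 ± 0.19 (SE, adjusted p = 0.00132). The other rises were RHOB (0.97), JUN (0.51), WEE1 (0.40), MCL1 (0.39) and CCNE1 (0.32). MYC, the growth-promoting transcription factor, fell from 292, 302 and 311 TPM to 178, 191 and 184 TPM, with a log2 fold change of -0.71 ± 0.17 (SE, adjusted p = 0.0168), and TXNIP, an inhibitor of thioredoxin, fell by 1.15 on the log2 scale. The call of MYC was lost without control replicate 2, MLN4924 replicate 1 or MLN4924 replicate 3.

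Genes known as targets of NRF2 rose together. NRF2 binds the antioxidant response element with a small MAF partner and drives genes of glutathione, thioredoxin, NADPH and detoxification. Of 40 listed targets 35 passed the filter, and of those 31 rose and 1 fell, against 7.36% and 7.11% of all genes tested. The median log2 fold change of the 35 was 1.1, against -0.0043 over all genes. The list was written with results of these data known, so its count is a description. HMOX1 was listed at 0 in all 12 libraries, and ABCC2, AKR1B10, CBR3 and GPX2 also stayed below the filter.

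The largest rise of the list was OSGIN1 (ENSG00000140961, chromosome 16 from 83931311 to 83966332), whose product slows growth under oxidative stress. It stood at 5.4, 3.93 and 4.64 TPM in control and 84.8, 99 and 102 TPM with MLN4924, with a log2 fold change of 4.09 ± 0.15 (SE, adjusted p = 5.92e-08). NQO1, a quinone reductase, was at 158, 169.8 and 158 TPM in control and 447, 516 and 534 TPM with MLN4924, with a log2 fold change of 1.61 ± 0.09 (SE, adjusted p = 2.04e-06). In both genes every MLN4924 library was above every control library by more than the spread within either group. Glutathione synthesis rose at the cystine importer SLC7A11 (2.81, 4.48 and 5.73 TPM in control and 16.9, 23.4 and 24.5 TPM with MLN4924, log2 fold change 2.1 ± 0.19) and at both subunits of the first enzyme, GCLM (15.9, 16.7 and 16.9 TPM in control and 52.2, 64.5 and 64 TPM with MLN4924, 1.80) and GCLC (8.54, 9.93 and 12.5 TPM in control and 18.6, 22.1 and 22.3 TPM with MLN4924, 0.97). GSR, which reduces oxidised glutathione, rose by 1.52 ± 0.10 log2 units.

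In the thioredoxin system TXNRD1 (thioredoxin reductase) stood at 116, 116 and 129 TPM in control and 433, 508 and 505 TPM with MLN4924, with a log2 fold change of 2.0 ± 0.12 (SE, adjusted p = 2.77e-06). Its substrate TXN rose by 0.94 ± 0.09, the peroxiredoxin PRDX1 by 0.44 ± 0.08 and SRXN1, which repairs oxidised peroxiredoxin, by 1.35 ± 0.10 log2 units. Enzymes that make NADPH rose as well. PGD, of the oxidative branch of the pentose phosphate pathway, rose by 1.0 ± 0.07 and ME1 (malic enzyme) by 1.43 ± 0.11 log2 units, and TKT and TALDO1, of the non-oxidative branch, by 0.60 ± 0.08 and 0.48 ± 0.05.

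The ketosteroid reductases of the AKR1C family rose by 1.91 to 3.32 log2 units. AKR1C1 stood at 99.4, 113 and 94.6 TPM in control and 828, 1193 and 1106 TPM with MLN4924, with a log2 fold change of 3.32 ± 0.11 (SE, adjusted p = 5.47e-08), and AKR1C2 and AKR1C3, from the same cluster on chromosome 10, had log2 fold changes of 2.21 ± 0.14 (adjusted p = 4.13e-06) and 1.91 ± 0.12 (adjusted p = 2.77e-06). The 3 genes are highly similar in sequence, so the share of each is uncertain. The export pump ABCC3 went from 0.25, 0.19 and 0.23 TPM to 5.12, 4.11 and 4.33 TPM, and the iron store genes FTL (5091, 5387 and 5306 TPM in control and 7829.5, 9299 and 9340.0 TPM with MLN4924) and FTH1 (2248, 2184 and 2021 TPM in control and 3123, 3916 and 3837 TPM with MLN4924) rose by 0.74 ± 0.07 and 0.75 ± 0.08 log2 units. SQSTM1, the autophagy receptor p62 that also binds KEAP1, rose by 1.27 ± 0.12. ABCC4 alone fell (-0.27 ± 0.07, adjusted p = 0.0294), a call lost whichever of the 6 libraries was left out. BLVRB (-0.34 ± 0.11, adjusted p = 0.0624), MGST1 (0.19 ± 0.17, adjusted p = 0.522) and AIFM2 (0.10 ± 0.07, adjusted p = 0.418) did not pass. The number of targets that rose lay between 29 and 31 under every alternative run without a fold threshold.

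**Figure D2:**
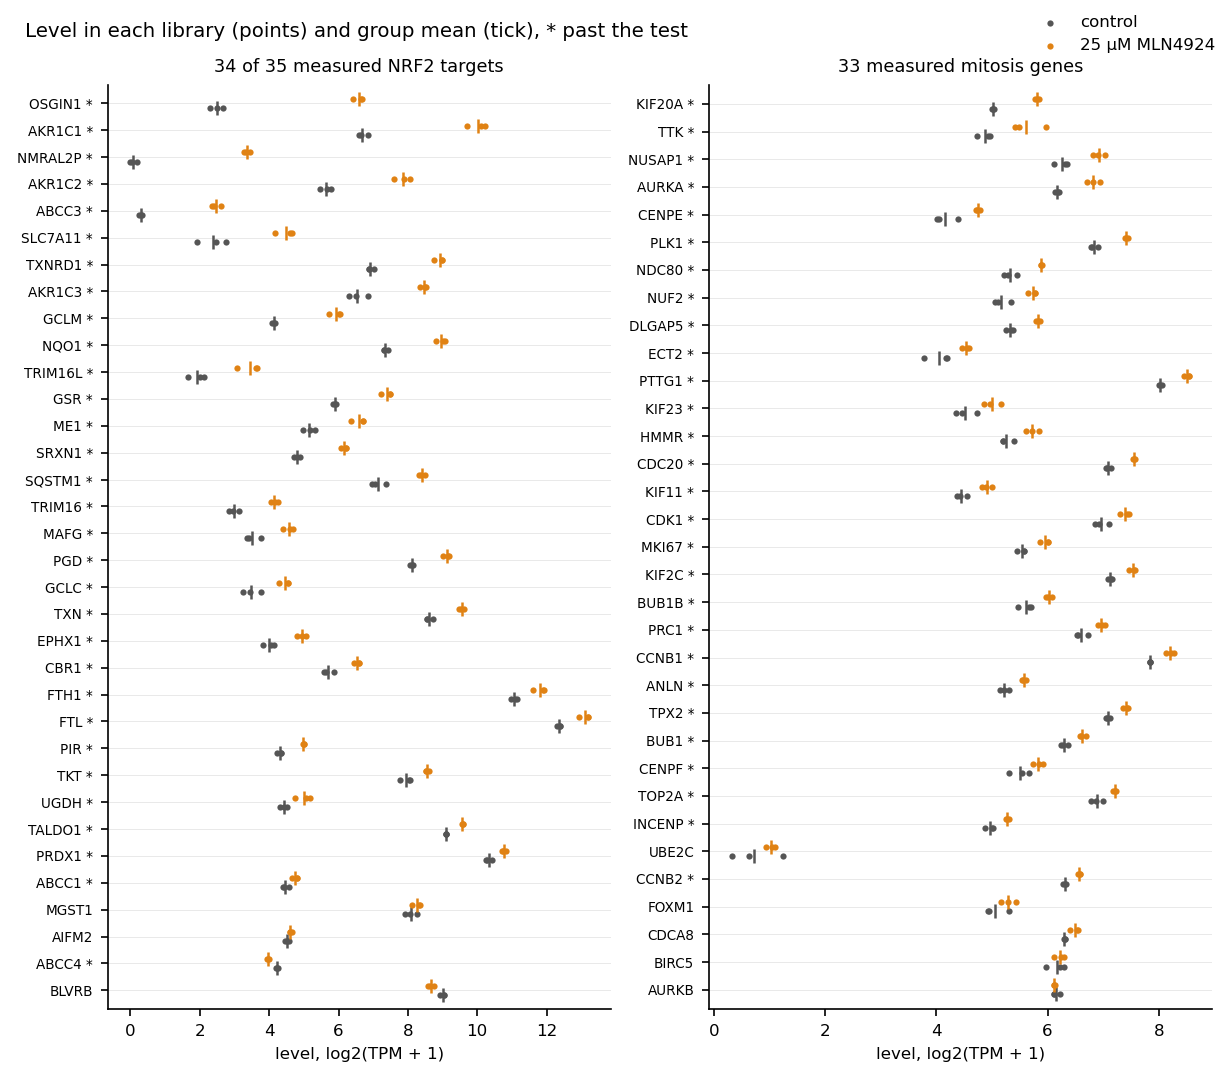
Log2(TPM + 1) in each of the 3 control and the 3 MLN4924 libraries (horizontal axis, 1 point per library) for measured NRF2 targets and for mitosis genes (vertical axis, 1 gene per line). In the NRF2 panel 30 of the 34 genes shown rose and shifts were up to 4.09 log2 units, and in the mitosis panel 28 of 33 genes rose by at most 0.79.

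The promoters of these genes were read for the letters NRF2 binds. RefSeq promoters (GRCh38.p14, 250 bases before to 50 after the start of the gene) were found for 10254 of the 15478 genes tested and searched on both strands for motifs chosen after the data were seen. The core of the antioxidant response element, TGANTCAGC, which contains the AP-1 site TGANTCA, was present in 1.07% of all promoters (110 of 10254), in 1.71% of those of genes that rose (15 of 879), in 0.886% of those that fell (7 of 790), in 1.22% of those that fell at least 2-fold (1 of 82), in 4.42% of those of genes that rose at least 2-fold (5 of 113) and in 4 of 26 promoters of NRF2 targets (ME1, AIFM2, OSGIN1 and PIR). ALAS2, an erythroid gene that fell, also carries it. The shorter AP-1 site was present in 4.42% of all promoters, 14.2% of those that rose at least 2-fold (16 of 113) and 2.44% of those that fell at least 2-fold. A match is a description of letters in this window, and no test was made. The 2 stretches below are shown because their genes are the largest rise of the list and the NADPH source malic enzyme. Capitals mark the motif on either strand. Distances are from the RefSeq start, which for OSGIN1 lies 21929 bases inside the gene span given above. The stretch of OSGIN1 lies at chr16:83953121-83953169 on the + strand with its motif 99 bases before the start, and that of ME1 at chr6:83431160-83431208 on the - strand, 137 bases before.
OSGIN1: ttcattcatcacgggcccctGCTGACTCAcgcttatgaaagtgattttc
ME1: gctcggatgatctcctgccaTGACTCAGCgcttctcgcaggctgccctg

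Outside that list the largest rises included liver, chemokine and secreted-protein genes that were low in control. GCKR (ENSG00000084734, chromosome 2 from 27496839 to 27523684), the inhibitor of glucokinase in liver, stood at 1.34, 0.16 and 0.31 TPM in control and 36.3, 43.1 and 49.7 TPM with MLN4924, with a log2 fold change of 4.84 ± 0.29 (SE, adjusted p = 2.77e-06). FNDC4 (ENSG00000115226, chromosome 2 from 27491883 to 27495200), on the same chromosome, also rose (1.86 ± 0.22, adjusted p = 0.000312). HPD, an enzyme of tyrosine breakdown, stood at 0.52, 0.05 and 1.18 TPM in control and 16.6, 23.9 and 22.5 TPM with MLN4924 (3.84 ± 0.28, adjusted p = 1.36e-05). Neither GCKR nor HPD exceeded 1.34 TPM in any control library, and both were at 16.6 TPM or more in every MLN4924 library.

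CTSL, the lysosomal protease cathepsin L, was already high and stood at 134, 134 and 128 TPM in control and 636, 741 and 758 TPM with MLN4924, with a log2 fold change of 2.42 ± 0.08 (SE, adjusted p = 5.47e-08). The chaperone gene CLU (0.85, 1.22 and 4.34 TPM in control and 12.6, 19.1 and 16.3 TPM with MLN4924) and SPP1, the secreted phosphoprotein osteopontin (0.66, 0.84 and 0.94 TPM in control and 6.67, 6.75 and 16.5 TPM with MLN4924), had log2 fold changes of 2.59 and 2.48, with 1 library apart in each (control replicate 3 for CLU, MLN4924 replicate 3 for SPP1). SGSM1 was listed at 0.01, 0 and 0 TPM in control and stood at 7.98, 5.85 and 19 TPM with MLN4924, for which no fold is given, and its call was lost without MLN4924 replicate 3. DAPP1, an adaptor of B cell signalling, rose by 2.35 ± 0.22, the cation channel TRPA1 by 2.26 ± 0.26, SCRN1 by 2.15 ± 0.14 and MDGA1 by 2.13 ± 0.21 log2 units. Of the 27 lysosome genes 6 rose and 4 fell, against 7.36% and 7.11% of all genes, and the median of the list was -0.02. CTSB (0.73), the galactosidase GLA (1.53) and the cholesterol exporter NPC1 (0.50) were among those that rose, and the glucosidase GAA (-0.57) among those that fell.

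Most mitosis genes rose. Cyclin B, CDK1 and their partners drive entry into mitosis, and their transcripts peak in G2 and M. Of 33 mitosis genes 28 rose and none fell, against 7.36% and 7.11% of all genes. The median of this list was 0.43 log2 units. CCNB1 stood at 227, 227 and 229 TPM in control and 296, 278 and 309.7 TPM with MLN4924 (0.37 ± 0.06, adjusted p = 0.00221), PLK1, the polo kinase, at 118, 109 and 110.1 TPM in control and 172, 169 and 167 TPM with MLN4924 (0.59 ± 0.06, adjusted p = 0.000136) and CDC20, an activator of the anaphase promoting complex, at 134, 132 and 140.1 TPM in control and 187, 186 and 189 TPM with MLN4924 (0.47 ± 0.05, adjusted p = 0.000136). For each of these genes the 3 MLN4924 libraries were above the 3 control libraries, as for 17.6% of all genes. AURKA rose by 0.64 ± 0.08, CDK1 by 0.43 ± 0.08, MKI67, the proliferation marker, by 0.43 ± 0.07 and TTK by 0.74 ± 0.14. The rises ran from 0.26 (CCNB2) to 0.79 (KIF20A), and none reached 2-fold. AURKB (-0.04), BIRC5 (0.05), UBE2C (0.29), CDCA8 (0.19) and FOXM1 (0.24) did not pass. The number that rose was 25 to 28 under every alternative without a fold threshold.

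Of 38 replication licensing and fork genes none rose and 5 fell, against 7.36% and 7.11% of all genes. Those 5 were POLA2 (-0.50) and POLD1 (-0.38), subunits of DNA polymerases, MCM2 (-0.43) and MCM5 (-0.26) of the replicative helicase and GINS2 (-0.34), and the median of the list was -0.088. The count was 2 without control replicate 2, without MLN4924 replicate 2 or without MLN4924 replicate 3. CDC6 and GMNN, licensing factor and licensing inhibitor, had log2 fold changes of 0.03 ± 0.11 (adjusted p = 0.889) and 0.12 ± 0.09 (adjusted p = 0.47). Among 22 regulators of G1 and S, CDKN1A, CCNE2 (0.51), CCNA2 (0.35) and CCNE1 rose and the CDK inhibitor CDKN1C (-1.12), CCND2 (-0.67) and CDK4 (-0.43) fell. CCND1 stood at 22.8, 19.3 and 18.1 TPM in control and 21.2, 18.4 and 18.2 TPM with MLN4924 and CCND3 at 268, 248 and 222 TPM in control and 329, 279.6 and 261 TPM with MLN4924, with log2 fold changes of -0.05 ± 0.31 (adjusted p = 0.939) and 0.24 ± 0.13 (adjusted p = 0.274). Of 18 measured replication-dependent histone genes 5 fell and none rose, with a median of -0.38, and since such transcripts mostly lack a polyA tail, the polyA libraries measure only a part of them.

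A motif of mitotic promoters was searched in the same way. The cell cycle homology region TTTGAA, bound by the complex that times genes of G2 and M, was found in 20 of 27 promoters of mitosis genes (74.1%), against 9.76% of all promoters, 13.2% of those of genes that rose, 8.85% of those that rose at least 2-fold (10 of 113), 7.97% of those that fell and 1 of 34 replication promoters (2.94%). The 4 stretches below belong to mitosis genes that rose and show the motif close before the start, with its letters in capitals. They lie at chr16:23678840-23678885 (+ strand, PLK1), chr15:59105097-59105142 (+ strand, CCNB2), chr1:43358896-43358941 (+ strand, CDC20) and chr10:128126445-128126490 (- strand, MKI67), with motifs 29, 29, 65 and 47 bases before the RefSeq start, which for PLK1 lies 1233 bases inside the gene as GENCODE gives it. The MKI67 stretch also holds a further copy of the motif, left in lower case, 29 bases before the start.
PLK1: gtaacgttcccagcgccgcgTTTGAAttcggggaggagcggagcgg
CCNB2: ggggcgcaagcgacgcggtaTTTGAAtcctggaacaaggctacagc
CDC20: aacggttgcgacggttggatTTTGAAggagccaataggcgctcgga
MKI67: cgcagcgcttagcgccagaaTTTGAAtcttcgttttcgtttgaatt

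Chemokines, immediate early genes and actin genes rose in part. Of 19 measured NF-kB targets 8 rose and none fell, against 7.36% and 7.11% of all genes. CXCL8, the chemokine interleukin 8, stood at 1.09, 0.9 and 1.12 TPM in control and 18.9, 26.3 and 26.8 TPM with MLN4924, with a log2 fold change of 3.60 ± 0.35 (SE, adjusted p = 8.25e-05). The chemokines CXCL3 (1.96) and CXCL2 (1.19), from the same cluster on chromosome 4, also rose, as did IER3 (1.27), BCL3 (0.77), TNFAIP2 (0.30) and RELB (0.76, 0.64 and 0.42 TPM in control and 3.31, 1.83 and 2.43 TPM with MLN4924, log2 fold change 1.12 ± 0.20, adjusted p = 0.00424) and NFKB2 (0.51 ± 0.14, adjusted p = 0.0331) of the non-canonical branch. NFKBIA, the inhibitor of NF-kB and a direct target of it, stood at 13.8, 13.8 and 14.3 TPM in control and 12.1, 11.7 and 11 TPM with MLN4924 (-0.25 ± 0.09, adjusted p = 0.105), and TNFAIP3 at 1.92, 1.52 and 2.06 TPM in control and 2.75, 1.57 and 1.95 TPM with MLN4924 (0.11 ± 0.20, adjusted p = 0.771). Neither passed. The list's median was 0.12, and its count of 8 became 4 to 6 when 1 library was left out, with 4 without control replicate 1 or without MLN4924 replicate 1.

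Immediate early genes, which growth factor and stress signals switch on within minutes, rose for 7 of 20 measured members and fell for none. Over all genes 7.36% rose and 7.11% fell. FOS stood at 2.28, 3.66 and 3.55 TPM in control and 6.71, 9.96 and 9.84 TPM with MLN4924 (1.24 ± 0.29, adjusted p = 0.0163), and IER5 (1.23), KLF6 (0.82), MAFF (0.80), NR4A2 (0.59), ZFP36 (0.55) and JUN (0.51) rose with it. The count of 7 was 4 without MLN4924 replicate 2. EGR1 stood at 19.9, 38.6 and 36.6 TPM in control and 31.4, 67.1 and 59.3 TPM with MLN4924 (0.70 ± 0.32, adjusted p = 0.184) and JUNB at 50.1, 53.5 and 51 TPM in control and 46.1, 50.1 and 46.6 TPM with MLN4924 (-0.11 ± 0.11, adjusted p = 0.561), and neither passed. Of 28 measured SRF and actin genes 12 rose and CNN2 fell (-0.41), and 11 to 13 rose under the alternatives without a fold threshold. ACTG1, cytoplasmic gamma actin, stood at 377, 433 and 416 TPM in control and 904, 1092 and 1082 TPM with MLN4924 (1.32 ± 0.11, adjusted p = 2.42e-05), ACTB rose by 0.48 ± 0.10, TPM4 by 1.29 ± 0.13, the focal adhesion protein ZYX by 1.23 ± 0.19, ACTN1 by 0.71 ± 0.14 and FLNA by 0.65 ± 0.15 log2 units. VCL and TPM1 had log2 fold changes of 0.10 ± 0.12 (adjusted p = 0.643) and 0.24 ± 0.13 (adjusted p = 0.258).

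Part of the red cell genes fell with MLN4924, while the most abundant globins did not pass the test. K562 cells make embryonic and fetal globins and, with suitable drugs, move toward the erythroid fate, in which GATA1 and KLF1 switch on globin, membrane and heme genes. Of 10 measured globins and globin partners 6 fell and none rose, against 7.11% and 7.36% of all genes. The median of this list was -0.67 log2 units. HBZ, the embryonic alpha-like globin, stood at 1662, 1778 and 1714 TPM in control and 645, 893 and 932 TPM with MLN4924, with a log2 fold change of -1.08 ± 0.24 (SE, adjusted p = 0.0111). HBA1 (-0.62), HBA2 (-0.60), HBQ1 (-1.01), HBD (-1.48) and AHSP, the chaperone of alpha globin (3.66, 13.2 and 4.34 TPM in control and 0.56, 0.59 and 1.61 TPM with MLN4924), also fell. HBG1 and HBG2, the fetal globins and the most abundant of the list, had log2 fold changes of -0.06 ± 0.12 (adjusted p = 0.794) and 0.02 ± 0.14 (adjusted p = 0.955), and HBE1 stood at 526, 502 and 484 TPM in control and 539, 541 and 560.2 TPM with MLN4924, with a log2 fold change of 0.12 ± 0.10 (SE, adjusted p = 0.469). HBG1 and HBG2, like HBA1 and HBA2, are near-identical copies whose shares are uncertain. With a correction for base composition, HBA1 and HBA2 no longer passed.

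Of 28 measured erythroid genes 12 fell and 2 rose, against 7.11% and 7.36% of all genes, with a median of -0.43. ALAS2, the erythroid first enzyme of heme synthesis, was at 43, 38.4 and 41.1 TPM in control and 19.2, 22.9 and 19.2 TPM with MLN4924 (-0.97 ± 0.25, adjusted p = 0.023). HEMGN (-1.24), the carbonic anhydrase CA1 (-1.21), GYPB (-1.20), the erythropoietin receptor EPOR (-1.11), ICAM4 (-1.11), the membrane skeleton genes ANK1 (-0.84) and SPTB (-0.73), XK (-0.50), RHD (-0.45) and the transferrin receptor TFRC (-0.28) fell too. CA2 (0.36) and the actin-bundling protein DMTN (0.51) rose, both calls lost in at least 5 of the 6 fits with 1 library left out. SLC4A1, the anion exchanger, stood at 1.32, 1.01 and 2.13 TPM in control and 0.48, 0.3 and 0.31 TPM with MLN4924 (-0.84 ± 0.36, adjusted p = 0.152), and EPB42 at 0.22, 0.24 and 0.33 TPM in control and 0.05, 0 and 0 TPM with MLN4924 (-0.31 ± 0.31, adjusted p = 0.571).

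**Figure D3:**
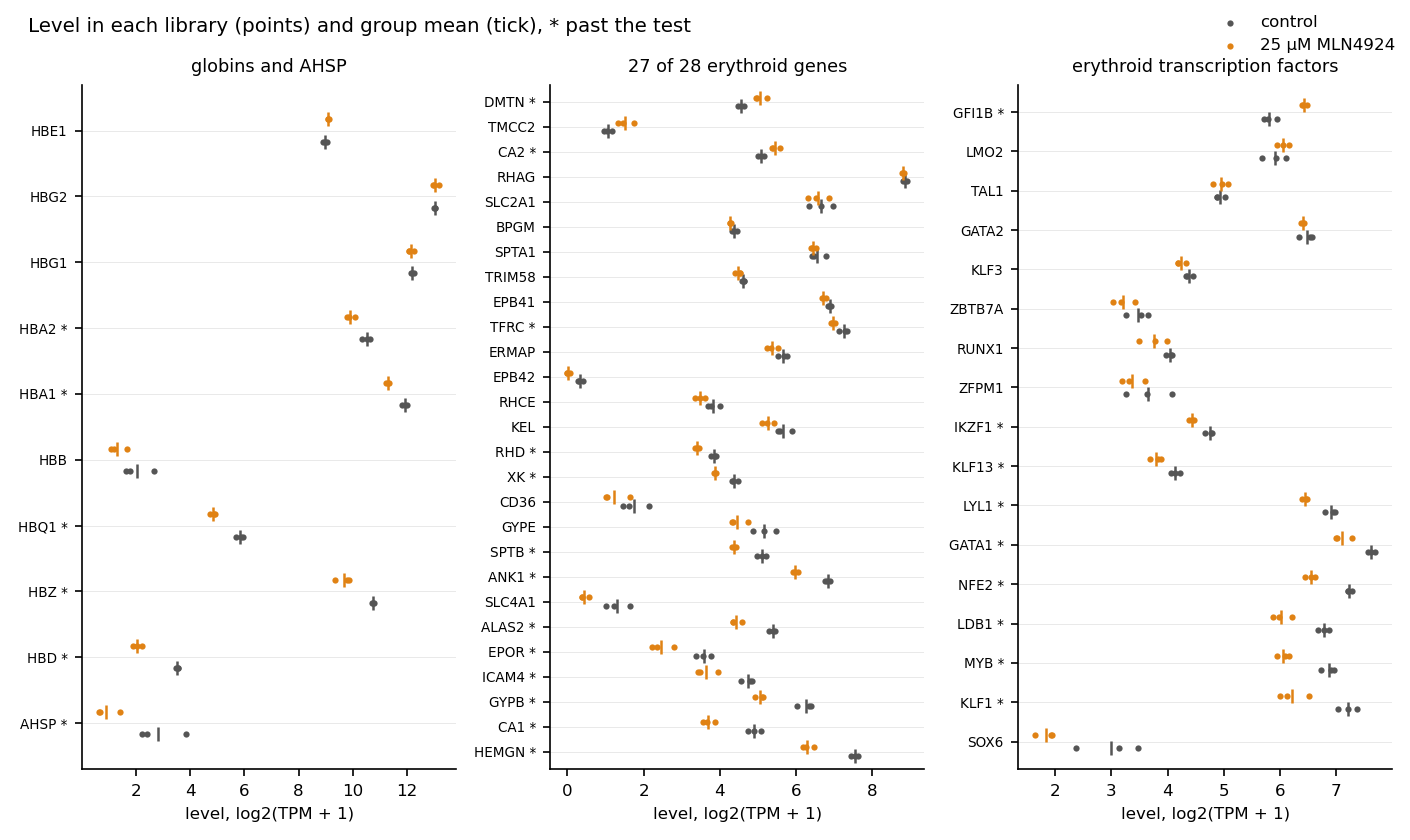
Log2(TPM + 1) in each of the 3 control and the 3 MLN4924 libraries (horizontal axis, 1 point per library) for globins, 27 of the 28 erythroid genes and erythroid transcription factors (vertical axis, 1 gene per line). In AHSP, HBD, HBZ and KLF1 the MLN4924 points lie left of the control points, while in HBG1, HBG2 and TAL1 the points of both groups overlap.

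The transcription factors of this lineage followed in part. Of 17 measured factors 8 fell and 1 rose, against 7.11% and 7.36% of all genes. KLF1 stood at 164, 148 and 129.7 TPM in control and 90.6, 63.3 and 68.6 TPM with MLN4924, with a log2 fold change of -0.99 ± 0.12 (SE, adjusted p = 0.000496), and GATA1 at 206, 195 and 189 TPM in control and 155, 127 and 129 TPM with MLN4924, with a log2 fold change of -0.52 ± 0.08 (SE, adjusted p = 0.00189). MYB (-0.80), LDB1 (-0.75), NFE2 (-0.69), LYL1 (-0.47), KLF13 (-0.34) and IKZF1 (-0.32) also fell, and GFI1B, a transcriptional repressor, rose (0.62). TAL1 stood at 31.3, 28.4 and 28.5 TPM in control and 32.7, 30.4 and 27.1 TPM with MLN4924 (0.03 ± 0.11, adjusted p = 0.901), and GATA2, the factor of earlier progenitors, at 80, 91.8 and 94.3 TPM in control and 82.4, 84.5 and 85.6 TPM with MLN4924 (-0.07 ± 0.19, adjusted p = 0.855). Among 25 genes of heme synthesis and iron 8 fell and 2 rose, beside the same shares of all genes. Among those that fell, PPOX (-1.44) and UROD (-0.34) are enzymes of the pathway, STEAP3 (-0.64) and TFRC bring iron in, and SLC25A38 (-0.45) and TMEM14C (-0.37) are mitochondrial transporters. The genes that rose were the ferritins FTL and FTH1. ALAS1 (0.22 ± 0.09, adjusted p = 0.123), ALAD (-0.45 ± 0.22, adjusted p = 0.195) and UROS (-0.03 ± 0.08, adjusted p = 0.885) did not pass.

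Of 13 measured megakaryocyte genes, those of the platelet lineage that K562 can also enter, SRGN (3.46, 3.95 and 4.13 TPM in control and 12.3, 19.3 and 12.9 TPM with MLN4924, 1.68 ± 0.16, adjusted p = 7.17e-05), GP6 (1.16 ± 0.21, adjusted p = 0.00406), RAB27B (1.01 ± 0.20, adjusted p = 0.0067) and CD9 (0.65 ± 0.10, adjusted p = 0.00142) rose and GP1BB fell, against 7.36% and 7.11% of all genes. PF4 and PPBP, platelet chemokines that define the lineage, were listed at 0 in all 12 libraries, and whether cells of another fate took part in these changes was not tested.

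The GATA letters AGATAA were found on either strand in 10 of 20 promoters of erythroid genes, against 5.19% of all promoters, 5.06% of those of genes that fell and 12.2% of those that fell at least 2-fold (10 of 82). Most genes that fell therefore do not carry these letters in this window. The 3 stretches below come from erythroid genes that fell, with the motif in capitals. They lie on the - strand at chrX:55031079-55031124 (ALAS2), chr14:64879924-64879969 (SPTB) and chr19:11384367-11384412 (EPOR), with motifs 127, 42 and 78 bases before the start.
ALAS2: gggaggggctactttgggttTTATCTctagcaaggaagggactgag
SPTB: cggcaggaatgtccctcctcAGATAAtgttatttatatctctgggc
EPOR: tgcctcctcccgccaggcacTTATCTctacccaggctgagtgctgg

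The largest falls of protein-coding genes came from genes of unlike function. GP1BB (ENSG00000203618, chromosome 22 from 19723539 to 19724771), a subunit of the platelet receptor for von Willebrand factor, stood at 131, 147 and 65.7 TPM in control and 19.5, 17.9 and 13.5 TPM with MLN4924, with a log2 fold change of -2.62 ± 0.24 (SE, adjusted p = 6.03e-05). An annotated readthrough gene overlaps it, so its value is uncertain. TMEM203 (27.3, 31.9 and 17.8 TPM in control and 2.53, 9.95 and 2.17 TPM with MLN4924) had a log2 fold change of -2.38 ± 0.73 (SE, adjusted p = 0.0499), a call lost in 10 of the alternatives run. TMEM160, a small membrane protein, stood at 31.8, 40.5 and 24.3 TPM in control and 6.78, 6.14 and 4.67 TPM with MLN4924 (-2.26 ± 0.21, adjusted p = 5.66e-05), CCDC85B at 53.4, 58.1 and 52.9 TPM in control and 13, 11.9 and 12.1 TPM with MLN4924 (-2.06 ± 0.19, adjusted p = 5.66e-05) and C4orf48 at 22.3, 47 and 22.8 TPM in control and 6.5, 5.78 and 7.64 TPM with MLN4924 (-1.97 ± 0.29, adjusted p = 0.00114). NMU, the neuropeptide neuromedin U, was the most abundant of them and stood at 307, 327 and 354 TPM in control and 93.3, 90.3 and 80.1 TPM with MLN4924, with a log2 fold change of -1.89 ± 0.14 (SE, adjusted p = 1.77e-05). C19orf81 (-1.98), the readthrough SYS1-DBNDD2 (-1.75), NYAP2 (-1.69), MMP24OS (-1.67), the transcription factor KLF15 (-1.63), the mucin MUC1 (-1.60), complement factor D (CFD, -1.52) and MYO16 (-1.48) complete the list of the largest falls together with AHSP.

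Base composition moved with the direction of change. Protein-coding genes that fell had a median GC content of 57.1% in the canonical transcript and a median length of 2227 bases (n = 956), against 46.2% and 3522 bases for those that rose (n = 1036) and 48.5% and 3223 bases for all tested (n = 11735). Among genes that fell at least 2-fold these medians were 59.1% and 1841 bases (n = 100). In the fifth of genes lowest in GC (30.7% to 40.6%) 266 rose and 57 fell, and in the fifth highest in GC (58.7% to 74.8%) 171 rose and 410 fell, with medians of 0.078 and -0.097 log2 units over 2347 genes each. Taking off a smooth curve on GC from each library left 1228 rises and 1066 falls, and 1952 of the 2239 genes kept call and direction. Under that correction 31 NRF2 targets and 27 mitosis genes rose, and 12 erythroid genes, 7 erythroid factors and 4 globins fell. The part of base composition in the other results was not tested.

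Cholesterol genes moved both ways. Of 28 genes of cholesterol synthesis and uptake 9 rose and 6 fell, against 7.36% and 7.11% of all genes. HMGCS1, which makes HMG-CoA, stood at 151, 150.1 and 167 TPM in control and 242, 266 and 262 TPM with MLN4924 (0.72 ± 0.11, adjusted p = 0.00188), and IDI1 (0.63), MSMO1 (0.62), STARD4 (0.58), CYP51A1 (0.54), SQLE (0.44), FDFT1 (0.42) and NSDHL (0.37) rose with it. LSS (-0.75), the transcription factor SREBF1 (-0.48) and the fatty acid enzymes ACACA, FASN (-0.34) and SCD (-0.30) were among those that fell.

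Genes of protein turnover and folding changed by small amounts. Of 35 proteasome genes 8 rose (against 7.36% of all genes), by 0.19 (PSMB1) to 0.34 (PSMD2), and none fell, with a median of 0.16. The MLN4924 libraries were wholly above control for 24 of the 35, against 17.6% of all genes. The count of 8 that rose lay between 2 and 6 when 1 library was left out, with 2 without control replicate 1. It was 12 in a fit of only the 6 libraries compared. Of 27 cytosolic chaperones DNAJB4 rose (0.87) and HSPB1 fell (-0.58), and 10 rose in the fit of the 6 libraries. The libraries were wholly above control for 17 of the 27. HSPA8 and HSP90AA1 had log2 fold changes of 0.14 ± 0.21 (adjusted p = 0.722) and 0.21 ± 0.18 (adjusted p = 0.488), and the near-identical HSPA1A and HSPA1B of 0.66 ± 0.27 (adjusted p = 0.139) and 0.45 ± 0.26 (adjusted p = 0.303). No gene of ribosome biogenesis passed limma's test of 29 (median -0.14, 2 at an unadjusted p under 0.05), with NCL at 784, 786 and 821 TPM in control and 754, 732 and 702 TPM with MLN4924 (-0.13 ± 0.16, adjusted p = 0.656), NPM1 at -0.06 ± 0.06 (adjusted p = 0.556), FBL at -0.23 ± 0.08 (adjusted p = 0.0704) and NOP56 at -0.24 ± 0.16 (adjusted p = 0.36). For 15 of the 29 the MLN4924 libraries were wholly below control, against 17.6% of all genes. Of 77 cytosolic ribosomal proteins only RPL13 (-0.63) and RPS2 (-0.53) fell and none rose, against 7.11% and 7.36% of all genes.

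The stress, survival and signalling lists are given beside the 7.36% of all genes that rose and the 7.11% that fell. Of 25 measured HIF targets 4 rose (ANGPTL4, VEGFA, KDM3A and P4HA2) and none fell. Of 28 measured ATF4 targets 3 rose and 4 fell, and of 19 chaperones of the endoplasmic reticulum none rose and SDF2L1 (-0.96) and CALR (-0.36) fell. Among 18 measured p53 targets only CDKN1A rose and GADD45A fell (-0.41), and among 24 genes of DNA damage signalling and repair PMAIP1 rose and H2AX and TIMELESS fell. Of 14 measured genes of the BCL2 family 3 rose, the survival gene MCL1 (0.39) and the death genes PMAIP1 (0.37) and BAK1 (0.45). Of 14 measured STAT5 targets BCL6 (1.26), DUSP5 and MCL1 rose and SOCS2 (-0.78), MYC and CCND2 fell, and of 13 measured feedback genes of ERK signalling PHLDA1 (1.67), SPRY4 (1.31), IER3 and DUSP5 (0.86) rose and SPRY1 (-0.69) fell.

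The remaining lists also stand beside the 7.36% of all genes that rose and the 7.11% that fell. ISG15 and IFITM1 fell of 17 measured interferon genes. No gene of 13 measured TGF-beta and ID genes or of 4 measured metallothioneins passed limma's test, with 0 and 2 at an unadjusted p under 0.05. Of 23 glycolysis genes PKM (0.65) and ALDOA (0.40) rose and PFKM and TXNIP fell, and of 20 measured autophagy genes 4 rose (SQSTM1, TAX1BP1, ULK1 and GABARAPL2) and GABARAP fell. MT-RNR1 fell among 14 mitochondrially encoded genes (-0.27), while MT-ND6 was listed at 0 in every library but control replicate 3. Of 16 housekeeping genes ACTB and YWHAZ rose and 2 fell, TFRC among them, with a median of -0.038.

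**Figure D4:**
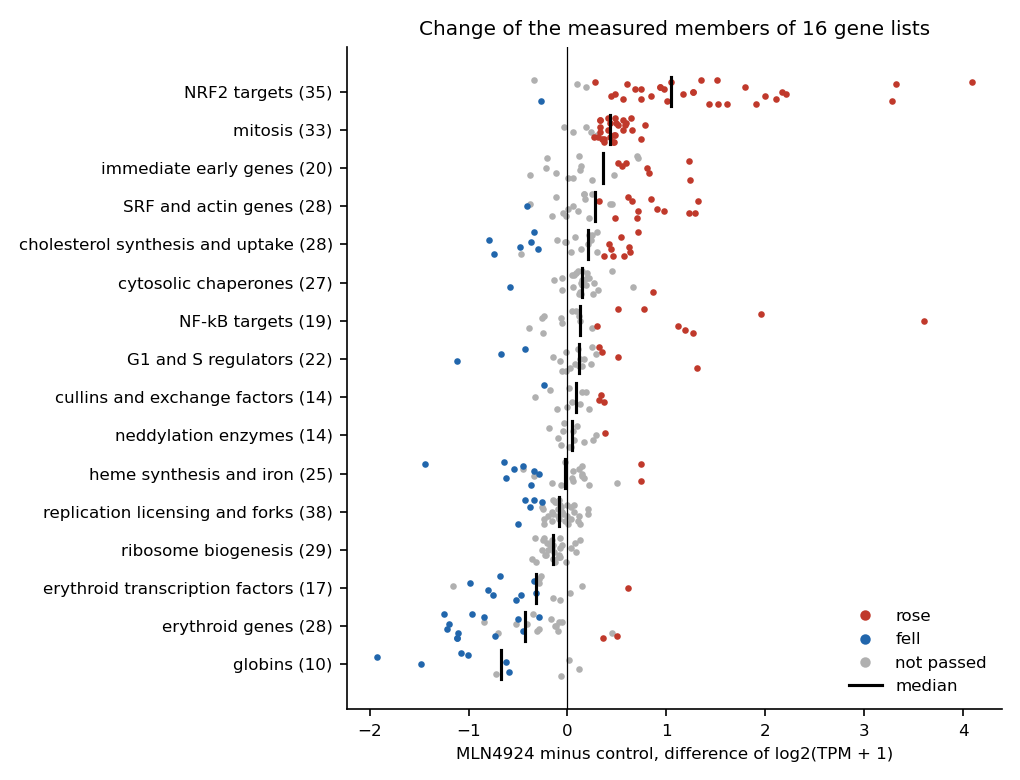
Log2 fold change of MLN4924 against control (horizontal axis, log2(TPM + 1) scale) of each measured member of the gene lists (vertical axis, 1 list per line), with members that rose and fell in colour and the median of each list as a bar. The medians of the NRF2 targets (1.1) and of the mitosis genes (0.43) lie right of 0 and that of the globins (-0.67) left of it.

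The same drug was also given to cells that received imatinib, an inhibitor of the BCR::ABL1 kinase, and those 6 libraries share none with the comparison above. In them 3492 genes rose (22.6%) and 3166 fell (20.5%) with MLN4924 against imatinib alone. Of the 1139 genes that rose without imatinib, 744 (65.3%) also rose with it and 34 fell, and of the 1100 that fell, 615 (55.9%) also fell and 62 rose. Across the 15478 genes Pearson's r between both sets of changes was 0.386, a description over genes that are not independent. The difference of the responses passed for 2540 genes (16.4%), of which 1402 were higher (9.06%) and 1138 lower (7.35%) in imatinib. It passed for 205 of the 1139 genes that rose without imatinib and 369 of the 1100 that fell. Those genes were chosen by a change that is itself part of the difference, so their counts are not comparable with the 16.4%. The counts of 1402 and 1138 moved with single libraries. Genes that were higher numbered 2368 without imatinib replicate 3 and 574 without imatinib replicate 2. Genes that were lower numbered 1611 and 481.

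NRF2 targets rose in both settings. In imatinib-treated cells 31 rose and 1 fell, against 22.6% and 20.5% of all genes, with a median of 1.3. The response was higher in imatinib for 12 of the 35 and lower for 3, against 9.06% and 7.35% of all genes. The difference was 1.03 ± 0.21 (SE, adjusted p = 0.0128) for OSGIN1 and 0.69 ± 0.13 (SE, adjusted p = 0.00796) for NQO1. Both started lower with imatinib. Mean NQO1 was 162 TPM in control, 89 with imatinib, 499 with MLN4924 and 442 with both drugs. Mean OSGIN1 was 4.66, 2.06, 95.3 and 104 TPM in the same order. CTSL stood at 309, 306 and 263 TPM with imatinib and 271, 259 and 299.6 TPM with both drugs, so that its log2 fold change there was -0.08 ± 0.08 (adjusted p = 0.466), and its response in imatinib minus that without was -2.5 ± 0.12 (SE, adjusted p = 3.56e-06). Mitosis genes rose in imatinib-treated cells for 18 of 33 members, against 22.6% of all genes, with a median of 0.25.

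Ribosome biogenesis and chaperone genes differed between the settings. With imatinib present MLN4924 raised 25 of 29 ribosome biogenesis genes and all 27 cytosolic chaperones (medians of 0.85 and 0.84), against 22.6% of all genes. The response was higher there for 24 and 17 of them, against 9.06% of all genes. These rises are against imatinib alone. Mean NCL was 797 TPM in control, 282 with imatinib and 517 with both drugs. Mean HSPA8 was 2397, 898 and 2097 TPM. Both means were below control with both drugs, while mean HSPA1A was 429 TPM in control and 524 with both. Imatinib replicate 3 stood apart in genes of these lists, with NCL at 233, 234 and 378 TPM and HSPA8 at 680.0, 702 and 1311 TPM in the 3 imatinib libraries. Without it the response was higher for 28 and 25, and over the 6 fits that each left out 1 imatinib or combination library it was higher for 12 to 28 and 9 to 25, lowest without imatinib replicate 2. In the same setting 10 of 10 globins and 25 of 28 erythroid genes fell, against 20.5% of all genes, with medians of -1.9 and -1.2. These falls too are against imatinib alone. Mean HBZ was 1718 TPM in control, 12761 with imatinib and 1941 with both drugs, and mean HBG1 4735, 11555 and 5589 TPM. For HBA1 those means were 3882, 11757 and 3087 TPM, below control with both drugs. HBA2 stood at 1490.0, 1312 and 1589 TPM in control and 886, 938 and 1082 TPM with MLN4924, and at 6976, 6592 and 4769 TPM with imatinib and 1448, 1357 and 897 TPM with both drugs, and its response in imatinib minus that without was -1.72 ± 0.26 (SE, adjusted p = 0.00389). Several genes that fell without imatinib were higher with both drugs than with imatinib alone, such as CCDC85B, at 8.43, 11.1 and 15 TPM with imatinib and 12.5, 16.9 and 20.6 TPM with both, and PPP2CA, a catalytic subunit of phosphatase 2A, at 187, 161 and 167 TPM in control and 86.8, 63.9 and 61.9 TPM with MLN4924 and at 43.2, 52 and 58.5 TPM with imatinib and 78, 65.2 and 90.6 TPM with both. MYC, which fell without imatinib, stood at 82.3, 78.5 and 133 TPM with imatinib and 98.3, 98.7 and 129 TPM with both drugs (0.18 ± 0.17, adjusted p = 0.428).

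**Figure D5:**
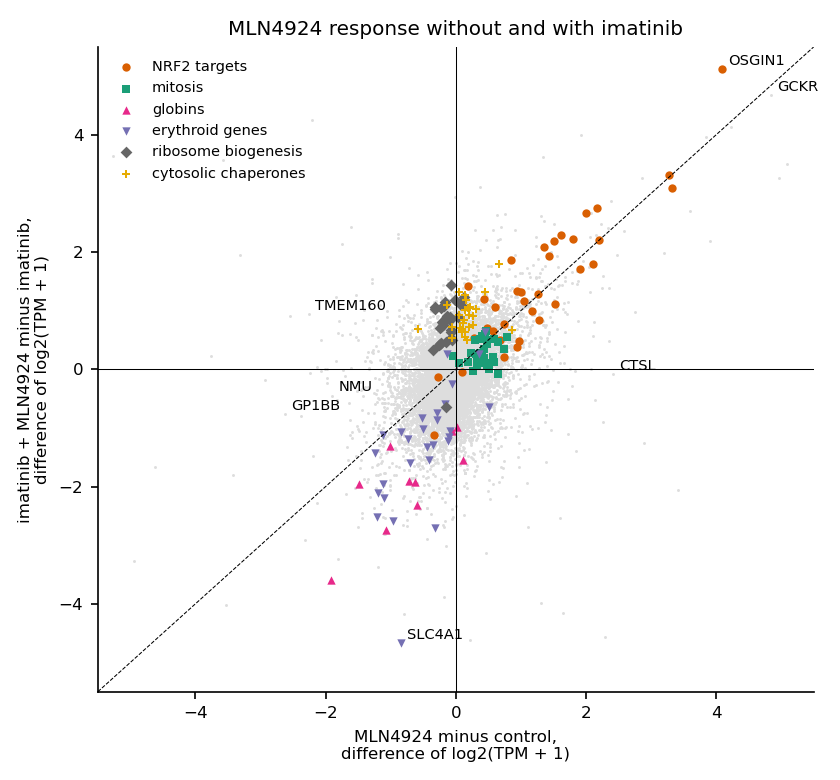
Log2 fold change of MLN4924 in imatinib-treated cells (vertical axis) against that in untreated cells (horizontal axis), both on the log2(TPM + 1) scale, 1 point per gene, with list members in colour. Most NRF2 targets lie in the upper right, most ribosome biogenesis genes lie above 0 on the vertical axis and near 0 on the horizontal, and globins lie lower on the vertical axis than on the horizontal.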

How the data were processed

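RNA of K562 cells was measured in 4 groups of 3 libraries. The authors used fastp for trimming, HISAT2 for alignment to hg38 and StringTie for quantification, and the deposited values are TPM. The submitters' processing notes also name featureCounts, but the table holds no counts. Sequencing depth is therefore unknown, no counting interval is given, and an exact 0 can be a failed estimate. Library strand is not given in the sources used here, so overlapping and antisense genes cannot be told apart. The table holds 61541 Ensembl genes and 691 assembled loci, which were left out. Of the genes 61369 matched GENCODE release 44, whose coordinates (GRCh38) are printed.

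Genes that reached 1 TPM in 3 or more libraries were kept (15478), and log2(TPM + 1) was fitted with limma 3.58.1 (trend, R 4.3.3), 1 coefficient per group over 12 libraries, with Benjamini-Hochberg adjustment over all genes and a threshold of 0.05. A fold change on this scale understates the change of low genes. Contrasts were MLN4924 against control, MLN4924 added to imatinib, and their difference. The fit was tested on simulated data: with 15478 genes it recovered 29 of 67 genes changed by 0.5 log2 units, 53 of 67 changed by 1 and 66 of 66 changed by 2, with 9 false calls. The simulated noise was normal and independent between genes and libraries. Far fewer genes were changed than were called in the data, and none near the floor, so recovery of low genes was not tried. Tables and figures used Python 3.11.15, pandas 2.3.3, numpy 2.4.6, scipy 1.17.1 and matplotlib 3.10.9. The paper names DESeq2, which needs counts and was not used here.

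The comparison and the 43 gene lists were chosen with earlier results of these data known. Genes named are the 15 largest rises and 15 largest falls among protein-coding genes that passed, did not overlap between groups and had a mean log2(TPM + 1) of at least 2 in either group, the drug target genes, the first 4 measured genes of 16 lists, and the 5 largest differences of each sign between both responses. Some genes that these rules name are not reported here, and list counts include them. All others were named after their values were seen, as were the motifs. Alternatives were another pseudocount (0.1 TPM), no filter, a mean of at least 5 TPM, median-of-ratios scaling, a replicate block, only the 6 libraries compared, no trend, a 2-fold threshold, each library left out and, chosen after seeing the data, a GC correction and each imatinib library left out.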

Additional observations from a re-analysis of the deposited data

Results flagged for a closer look

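The log2 response to MLN4924 differed between cells with and without imatinib, by limma's test of the difference with an adjusted p under 0.05, for 71 of the 181 genes followed, 40 higher and 31 lower in imatinib. Over all genes tested 16.4% passed that test. Some of the genes followed were chosen for the largest differences between both responses. Others were chosen for a large change without imatinib, which is itself part of the difference. The count of 71 is therefore not comparable with the 16.4%. Each value below is the response in imatinib minus the response without, in log2 units. With groups of 3 libraries, no library was tested as an outlier.

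Among genes that rose without imatinib, the response was higher in imatinib for OSGIN1 (1.03), PRDX1 (0.76), SRXN1 (0.73), NQO1 (0.69), GSR (0.67), TXNRD1 (0.67), ME1 (0.51), GCLM (0.42), PSMD2 (0.41) and PGD (0.31), and lower for SGSM1 (-5.48), CTSL (-2.50), EPB41L1 (-1.86), LBH (-1.76), MDGA1 (-1.31), DMTN (-1.16), SQLE (-1.05), CD9 (-0.82), GFI1B (-0.81), FTH1 (-0.53) and CCNB2 (-0.29). SGSM1 was listed at 0 or 0.01 TPM in control, so the size of its difference depends on the pseudocount. Among genes that fell without imatinib, the difference was positive for TMEM160 (3.20), CCDC85B (2.57), SYS1-DBNDD2 (2.34), PPP2CA (1.87), NDUFAF8 (1.87), GP1BB (1.86), C4orf48 (1.82), C19orf81 (1.75), MYB (1.56), NMU (1.45), HSPB1 (1.27), MYC (0.88), CUL4A (0.66), CNN2 (0.63), FASN (0.47), MYO16 (0.43) and GADD45A (0.40). It was negative, a larger fall from the level with imatinib alone than from control, for HBA2 (-1.72), HBZ (-1.67), ALAS2 (-1.62), CDKN1C (-1.40), HBA1 (-1.30), CA1 (-1.30), TXNIP (-1.15), EPOR (-1.09), PPOX (-1.0) and SPTB (-0.47). Among genes that did not pass without imatinib, it was positive for EGR1 (1.73), GATA2 (1.60), NOP16 (1.52), MGST1 (1.24), HSPA8 (1.14), NCL (1.03), NOP56 (0.95), HSP90AA1 (0.86), NFKBIA (0.71), FBL (0.68), JUNB (0.56), NPM1 (0.56) and NEDD8 (0.34), and negative for SLC4A1 (-3.83), EPB42 (-2.39), HBE1 (-1.67), ALAD (-1.14), TAL1 (-1.07), HBG2 (-1.01), HBG1 (-0.99), BLVRB (-0.78), UBTF (-0.50) and UROS (-0.44).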

How the results depend on the processing

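The deposited TPM leave depth unknown, so no limit of detection is given, and changes near 0.5 log2 units may be missed at 3 libraries a group. Genes that rose or fell with MLN4924 numbered 1139 and 1100, 167 and 143 with a 2-fold threshold, and 660 to 939 and 680 to 938 when 1 library was left out. The difference between both responses held 1402 higher and 1138 lower genes, 668 and 730 with no filter and 249 and 383 with a 2-fold threshold. Leaving out 1 library gave 574 to 2368 higher and 481 to 1611 lower. The cause was not tested. Other scaling, filters, pseudocount and variance models kept the numbers of all genes that rose or fell with MLN4924 within 1.5 times, and the median of all genes moved from -0.0043 to -0.0113 under median-of-ratios scaling. All 2239 genes kept their direction in each setting that tested them, and the stricter filter tested 1896 of them. Over 2519 repeats for 181 genes, 164 lost the call, 15 gained it and none reversed. Of 136 genes called, 30 lost the call in at least 1 setting and 23 in a setting that kept all 12 libraries.

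Replicates of different groups share a number in the labels. Same-numbered libraries did not deviate together (correlations of -0.0591 to 0.185, not all above 0.1), so the numbers were not read as pairs. With the replicate number as a block, 1127 genes rose and 1078 fell, and the difference of both responses held 1433 higher and 1120 lower genes.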

Other observations

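Long noncoding RNAs were not part of the named genes. Of the genes that rose 76 were lncRNAs, and of those that fell 98. How many lncRNAs were tested was not counted, so no share stands beside these numbers. The genes given here were chosen after their values were seen. LUCAT1 (ENSG00000248323, chromosome 5 from 91054834 to 91314547), a stress-induced lncRNA, stood at 0.77, 0.81 and 0.72 TPM in control and 21.3, 41.9 and 37.6 TPM with MLN4924, with a log2 fold change of 4.24 ± 0.24 (SE, adjusted p = 2.33e-06), and every MLN4924 library was above every control library. With imatinib it stood at 0.5, 0.13 and 0.95 TPM and with both drugs at 23.9, 23 and 29.1 TPM. STXBP5-AS1 stood at 3.75, 4.08 and 4.2 TPM in control and 18.5, 26.3 and 23.6 TPM with MLN4924 (2.24 ± 0.21, adjusted p = 6.8e-05) and DLGAP1-AS2 at 7.4, 5.95 and 8.35 TPM in control and 16.7, 22.1 and 19.9 TPM with MLN4924 (1.32 ± 0.15, adjusted p = 0.000312). BSG-AS1 fell from 11.1, 9.11 and 7.97 TPM to 2.98, 2.46 and 3.1 TPM (-1.43 ± 0.15, adjusted p = 0.000142), and JRKL-AS1 from 7.45, 6.51 and 5.92 TPM to a value listed at 0 in all 3 MLN4924 libraries. Reads of these antisense genes cannot be told apart from those of their partners.

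A few other genes outside the lists were picked by hand after their values were seen, and they stand for no group. CD44, the adhesion receptor for hyaluronan, stood at 7.14, 5 and 8 TPM in control and 35.4, 29.2 and 27.7 TPM with MLN4924 (2.06 ± 0.23, adjusted p = 0.000253), and the tyrosine kinase SRC at 2.42, 1.87 and 2.3 TPM in control and 8.52, 8.22 and 8.74 TPM with MLN4924 (1.57 ± 0.16, adjusted p = 0.000151). The protein kinase C gene PRKCB stood at 90.8, 92.8 and 99.3 TPM in control and 261, 279 and 268 TPM with MLN4924 (1.5 ± 0.23, adjusted p = 0.0014) and the surface peptidase MME at 1.98, 2.81 and 2.19 TPM in control and 8.01, 9.33 and 6.68 TPM with MLN4924 (1.43 ± 0.24, adjusted p = 0.00278). In none of these 4 genes did the libraries of both groups overlap. Among genes that fell, PKLR, the pyruvate kinase of liver and red cells, stood at 21.6, 21.9 and 22.3 TPM in control and 7.41, 9 and 8.33 TPM with MLN4924 (-1.32 ± 0.19, adjusted p = 0.00123) and the transcriptional coregulator CITED2 at 44.6, 46.9 and 43.8 TPM in control and 23.3, 16.6 and 16.9 TPM with MLN4924 (-1.23 ± 0.16, adjusted p = 0.000576).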
